A study of Rattus norvegicus with 15 samples.

Results

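The cervical loop and the maturation-stage enamel organ are the opposite ends of enamel formation along the rat mandibular incisor, and the array comparison between them is described here. The members are 10 of the study's 15 one-colour arrays, 5 of cervical loop and 5 of maturation-stage tissue, taken by the tissue label of each sample; the other 5 arrays are of the secretory stage. All tissue came from Wistar Hannover rats aged 4 weeks, with no treatment or genetic change named in the labels, and per the series' design the samples came from 5 rats. The titles call the arrays biological replicates, but the labels do not say whether arrays with the same number come from the same rat. Enamel organ was sampled whole, so fewer cells of a type and less RNA per cell cannot be told apart in any value below.

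The rodent incisor grows throughout life, and its enamel is made by an epithelium called the enamel organ. The cervical loop at the growing end holds the epithelial stem cells and their dividing progeny. Ameloblasts derived from it first secrete a protein-rich enamel matrix and later, in maturation, remove that matrix while calcium and phosphate are moved into the hardening enamel. The array covers long noncoding RNAs and transcripts of ultraconserved elements, which are stretches of genome kept identical between human, rat and mouse. Few of its probes could be given a gene name here, and the kind of RNA read by the unnamed probes was not determined.

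Tissue label and title disagreed for 4 of the 5 maturation arrays, replicates 2 to 5, whose titles name the secretory stage. Over the features tested, maturation replicate 1, whose title and tissue label agree, correlated with the other 4 arrays labelled as maturation tissue at Pearson's r of 0.990 to 0.994. Its correlations with the 5 arrays labelled as secretory tissue were 0.930 to 0.942. In the lists of values below, replicate 1 always comes first. With stages taken from the titles, 3740 features were higher and 7858 lower in maturation than in cervical loop, and values of single genes under the titles are given where their direction turned.

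Each value is the log2 of the deposited processed signal, averaged over the spots of a probe, minus the 75th percentile of its array, and is called the normalized log2 signal. A feature is a gene or a probe, and 28863 features were tested with limma, those that stood well above background on the complete set of 5 arrays in 1 stage or more. The difference is maturation minus cervical loop on the log2 scale, and the threshold is a Benjamini-Hochberg adjusted p of 0.05. One fit over all 15 arrays gave the SEs and limma p-values, so they also carry the spread of the secretory arrays. The signals of different probes are not comparable as levels, so each probe is compared only with itself. Where a stage had no array with the probe well above background, the fold is a lower bound, which sets the mean of the brighter stage against the mean over the dim arrays of the higher of the probe's own value and the lowest signal well above background on that array. A bound holds for the processed signal only. In the alternative of normexp background correction an offset of 50 intensity units is added to every spot, which by its construction pulls the differences of dim probes towards 0. Some called features were followed through the alternatives, and the fold between the stages was compared with and without normexp correction. The fold fell by a factor of more than 1.5 for 14 of 38 that were well above background on all 10 arrays. It did so for 15 of 16 that were not. Per array, 38321 probes were read from 41623 spots, 107 to 276 spots were left out and no spot was saturated, and with 5 arrays a stage their number limits the precision.

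Most features differed between the stages. Of the 28863 features, 18255 (63.2%) passed the threshold, 5936 (20.6%) higher and 12319 (42.7%) lower in maturation. With a difference of at least 2-fold as well, 8193 (28.4%) remained past both limits, of which 2385 (8.26%) were higher and 5808 (20.1%) lower. Regardless of the test, the arrays of the stages did not overlap for 12984 features (45.0%). The 5 maturation arrays all lay above the 5 cervical loop arrays for 4140 features (14.3%) and all below them for 8844 (30.6%). Most differences were moderate. A fold of 8 or more was reached by 294 features higher in maturation and 349 lower, of which 217 and 168 were well above background on all 10 arrays. A fold of 32 or more was reached by 59 higher and 26 lower, 37 and 6 of them well above background on all 10 arrays; the other folds are read against signal that was not well above background on some array.

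**Figure D1:**
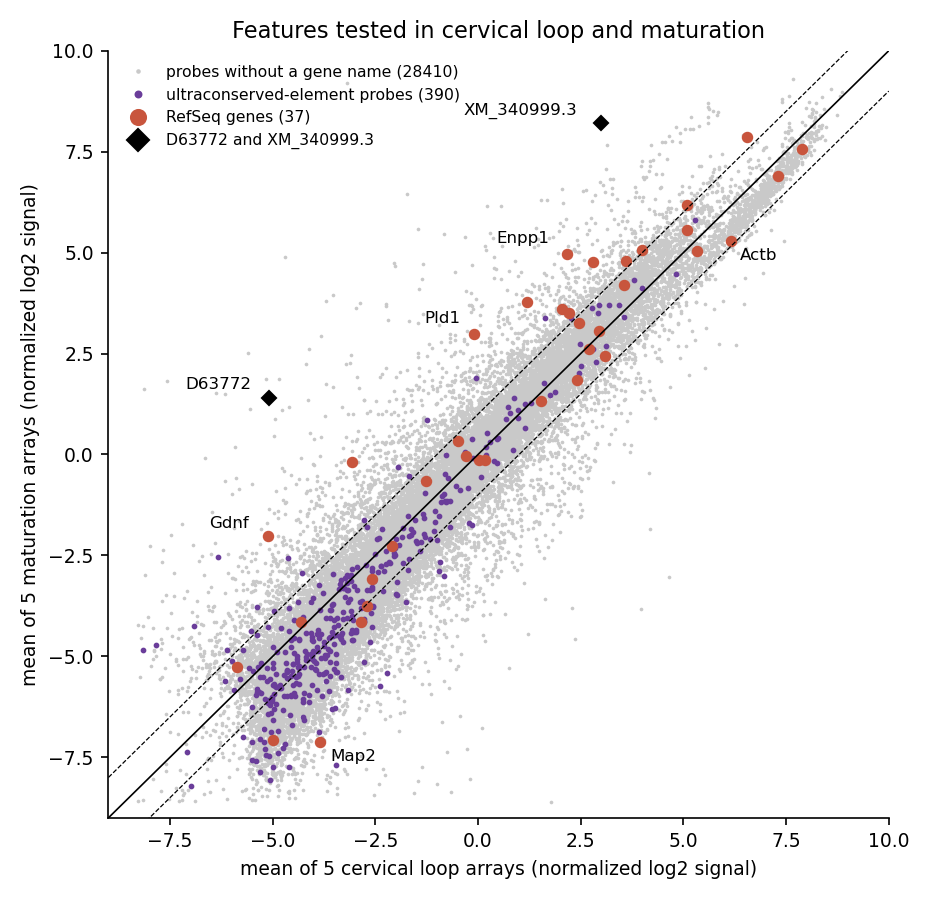
Mean normalized log2 signal of the 5 maturation arrays (vertical) against that of the 5 cervical loop arrays (horizontal) for the features tested. The solid line marks equality and the dashed lines a 2-fold difference; Gdnf, Pld1, Enpp1, D63772 and XM_340999.3 lie above the upper dashed line, Map2 lies far below the lower one, and many features at the dim end lie below the solid line.

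The lower calls were concentrated among dim features. In the dimmest quintile of features by mean signal, 65.9% were lower and 7.48% higher in maturation, with a median difference of -0.94. Those shares moved to 54.9% and 11.7% in the next quintile, to 41.3% and 17.8% in the middle quintile, and to 25.8% and 29.3% in the fourth. In the brightest quintile 25.5% were lower and 36.6% higher, and the median difference was 0.15. Over all features the median difference was -0.28, and it was -0.05 with quantile normalization and 0.16 when arrays were scaled to their median. Of all calls, 32.5% were higher in maturation, against 45.7% with quantile normalization and 61.8% with median scaling. With quantile normalization the dimmest quintile held 32.4% lower and 22.2% higher, and the brightest quintile 32.4% and 26.5%.

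**Figure D2:**
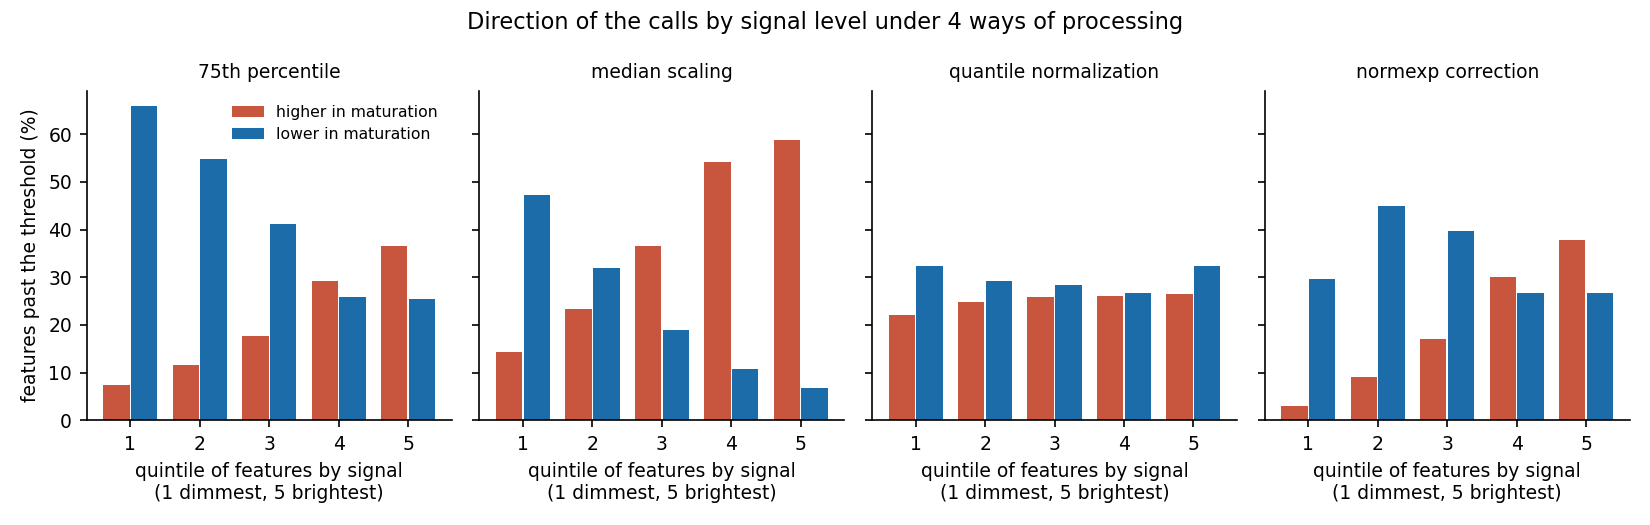
Percentage of features past the threshold higher (red) and lower (blue) in maturation, in quintiles of the features by mean signal, under 4 ways of processing the same arrays. Under the 75th percentile the lower calls fall from 65.9% in the dimmest quintile to 25.5% in the brightest; under quantile normalization the 5 quintiles are nearly level, between 26.6% and 32.4% lower.

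Several measures of the arrays themselves differed between the stages. The 10 E1A control probes are positive controls of the array design and are not rat genes. Only 3 of them, a107, a20 and a22, were well above background on all 10 arrays, and their differences, maturation minus cervical loop, were -0.36, -0.68 and -0.19. Of these 3, a20 was lower on every maturation array than on every cervical loop array and the other two overlapped. Probe 3 was well above background on all 5 cervical loop arrays and no maturation array, n11 on 2 cervical loop arrays and no maturation array, and the other 5 on no array, so no size is read from these 7. The Feature Extraction headers gave a spike-in fit slope of 0 on every array, so the files record no spike-in scale. Spots well above background made up 77.1% ± 2.58 (SD, n = 5) on the cervical loop arrays and 71.9% ± 3.30 on the maturation arrays (exact two-sided permutation p = 0.0317, and 0.0381 after adjustment over the 6 array measures compared). Without cervical loop replicate 1, 3, 4 or 5 or maturation replicate 3 or 4 that p was 0.0635. The median local background was 23.5 ± 2.18 and 19.6 ± 1.34 intensity units (exact permutation p = 0.0159, adjusted 0.0317). The negative control probe read -8.17 ± 0.22 and -8.47 ± 0.29 (exact permutation p = 0.0873, the same after adjustment). The median minus the 75th percentile of an array was -2.87 ± 0.08 and -3.31 ± 0.10 on the log2 scale (exact permutation p = 0.00794, adjusted 0.0238). The mean of the 10 E1A probes, most of them not well above background throughout, was -6.48 ± 0.21 and -7.19 ± 0.10 (exact permutation p = 0.00794, adjusted 0.0238). The part of these measures in the dim decreases was not tested.

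**Figure D3:**
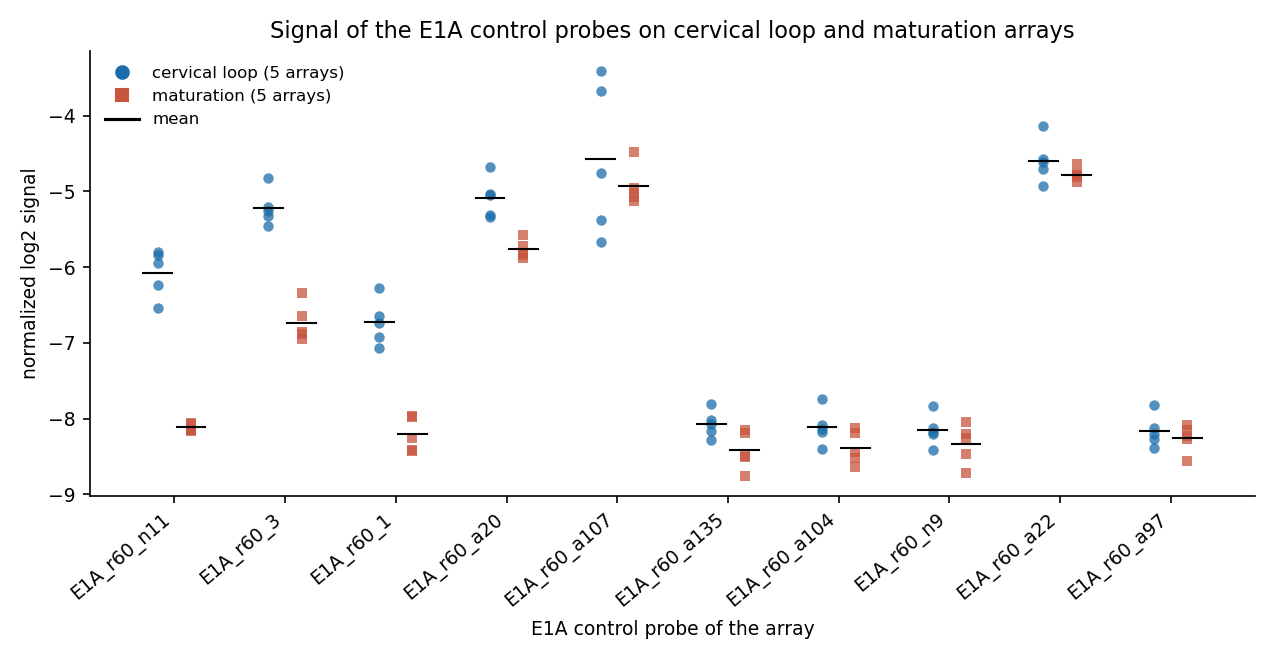
Normalized log2 signal of the 10 E1A control probes on the 5 cervical loop (blue circles) and 5 maturation arrays (red squares), with black lines at the means. The points of n11, 3, 1 and a20 do not overlap, with maturation lower, but of these only a20 was well above background on all 10 arrays; a107 and a22, also above background throughout, overlap.

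Scan day and stage cannot be separated, or told apart, in these files: all maturation arrays were scanned on the first scan day and all cervical loop arrays on the second, and no scan held both. Maturation replicates 1 to 4 shared a scan and replicate 5 was in another; cervical loop replicates 1 to 4 shared a scan and replicate 5 was in another. Cervical loop arrays also varied more. The median SD over features was 0.31 in cervical loop and 0.21 in maturation, and the SD was larger in cervical loop for 20943 of 28860 features (72.6%). Correlations between arrays were 0.974 to 0.987 within cervical loop, 0.988 to 0.995 within maturation and 0.929 to 0.947 between the stages. None of the 30 marker genes of ameloblasts, other enamel organ epithelium, odontoblasts and pulp, vessels, blood, muscle or nerve was among the named genes of the array, so the labelled tissue could not be checked against markers.

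The array names 38 RefSeq genes, and 37 were tested; the gene not tested, Lhcgr, the luteinizing hormone receptor, was well above background on no cervical loop or maturation array. Of the 37, 17 were higher in maturation (45.9%, against 20.6% of all features), 10 were lower (27.0%, against 42.7%) and 10 did not pass the threshold. Their median difference was 0.27, against -0.28 over all features. These genes sit mostly among bright probes, with a median signal of 2.48 against -1.73 over all features, a range in which higher calls were more frequent. The brightest quintile held 20 of the 37, of which 11 were higher and 5 lower, against 36.6% and 25.5% of all features there. Shares set beside groups of genes below are over all features, not over features of like signal.

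Promoters are shown for 3 of these genes, on either side of the comparison: Ldha and Hprt1, which were higher in maturation, and Fgf2, which was lower. The sequences are the 250 bases before the RefSeq start on the GRCr8 build, 5′ to 3′ on the gene's strand, for Ldha at chr1:106507842-106508091, Hprt1 at chrX:137655494-137655743 and Fgf2 at chr2:122164204-122164453, all on the plus strand. Capitals mark ACGTG on either strand in Ldha and Fgf2, the core bound by hypoxia-inducible factors and other helix-loop-helix proteins, and GGGCGG on either strand in Hprt1, a GC box of the kind bound by Sp1.
Ldha: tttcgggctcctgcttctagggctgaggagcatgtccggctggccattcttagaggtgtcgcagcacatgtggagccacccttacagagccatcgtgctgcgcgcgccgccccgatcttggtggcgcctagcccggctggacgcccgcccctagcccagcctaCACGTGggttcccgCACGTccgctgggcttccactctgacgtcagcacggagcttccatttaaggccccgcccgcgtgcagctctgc
Hprt1: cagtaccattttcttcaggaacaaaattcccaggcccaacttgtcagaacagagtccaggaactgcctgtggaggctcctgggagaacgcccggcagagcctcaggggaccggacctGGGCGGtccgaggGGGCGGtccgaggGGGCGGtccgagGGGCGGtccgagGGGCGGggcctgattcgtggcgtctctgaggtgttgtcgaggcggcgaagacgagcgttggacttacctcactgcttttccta
Fgf2: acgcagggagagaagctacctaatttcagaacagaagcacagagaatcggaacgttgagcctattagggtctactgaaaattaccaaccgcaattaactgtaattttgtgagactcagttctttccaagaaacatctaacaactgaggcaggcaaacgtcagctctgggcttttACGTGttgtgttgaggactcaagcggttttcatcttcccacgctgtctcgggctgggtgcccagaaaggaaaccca
ACGTG matched 3 times in 2 stretches in Ldha, where CACGTG reads the same on both strands, and once in Fgf2. GGGCGG matched 5 times in Hprt1, 3 times in Ldha, where it is left in lower case, and not in Fgf2; ACGTG did not match in Hprt1. Of all 33469 RefSeq promoter windows of this length, 16.6% held ACGTG and 30.5% GGGCGG; of 29 windows of 27 of the genes tested, 12 held ACGTG and 10 GGGCGG. The other 10 genes had no entry. A match is a description of letters only.

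Of 4 genes of energy metabolism, 3 were higher in maturation and none lower, where 20.6% of all features were higher and 42.7% lower. Ldha makes the lactate dehydrogenase subunit that turns pyruvate to lactate. Its normalized log2 signal was 6.53, 6.48, 6.34, 6.72 and 6.69 on cervical loop replicates 1 to 5 and 7.85, 7.95, 8.01, 7.78 and 7.69 on maturation replicates 1 to 5. All maturation arrays lay above all cervical loop arrays, by 2.48-fold in the means (difference 1.31, SE 0.11, limma adjusted p = 9.52e-08). A separate Ldha probe, not used in the test because its signal was lower, read 4.30 ± 0.11 and 5.47 ± 0.12 (SD, n = 5), a difference of 1.17. Pgk1, the ATP-yielding phosphoglycerate kinase of glycolysis, read 4.92 to 5.38 in cervical loop and 5.92 to 6.36 in maturation. The stages did not overlap, and Pgk1 was 2.11-fold higher in maturation (adjusted p = 1.94e-06). Sdha, the flavoprotein subunit of succinate dehydrogenase in mitochondria, was 2.09-fold higher, also without overlap (difference 1.07, SE 0.17, adjusted p = 6.04e-05). Pdk3, a kinase that inhibits pyruvate dehydrogenase, differed by 0.27 (SE 0.15, adjusted p = 0.14) and did not pass. With stages from the titles the difference was -0.46 for Ldha, -0.16 for Pgk1 and 0.77 for Sdha, so the direction of Ldha and Pgk1 turned. In secretory tissue Ldha read 5.66 ± 0.10, below both other stages.

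Among 4 genes that handle nucleotides and pyrophosphate, Enpp1 and Hprt1 were higher in maturation and none was lower (20.6% and 42.7% of all features). Enpp1 is the ectoenzyme that makes pyrophosphate, an inhibitor of mineral formation, from extracellular ATP. Its signal was 2.11, 2.31, 1.94, 2.07 and 2.43 on the cervical loop arrays and 4.99, 5.08, 5.26, 4.97 and 4.59 on the maturation arrays. Maturation was the higher stage on every array, by 6.99-fold (difference 2.80, SE 0.15, adjusted p = 6.59e-10). Hprt1, the purine salvage enzyme often used as a reference gene, read 2.73, 2.88, 2.75, 2.68 and 2.93 in cervical loop and 4.80, 4.81, 4.95, 4.79 and 4.48 in maturation. The 2 stages were well apart, and the fold was 3.93 (difference 1.97, SE 0.12, adjusted p = 2.97e-09). Slc28a2, a sodium-coupled nucleoside transporter, ranged from 0.76 to 2.82 in cervical loop and from 1.22 to 1.64 in maturation, and did not pass (adjusted p = 0.528). P2rx2, an ATP-gated ion channel, did not pass either (difference -0.17, adjusted p = 0.613). Under the titles Enpp1 differed by -0.19 and Hprt1 by 0.23, and neither passed. Of the phosphate and pyrophosphate list of 7 genes, Enpp1 was the only gene named on the array.

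The 2 growth factors went in opposite directions. Gdnf is a secreted neurotrophic factor that signals through the Ret receptor. Its signal was -4.85, -4.27, -5.01, -5.88 and -5.58 in cervical loop and -1.71, -1.47, -1.62, -2.99 and -2.31 in maturation. The lowest maturation array, replicate 4, lay above the highest cervical loop array, and the mean was 8.58-fold higher (difference 3.10, SE 0.34, adjusted p = 1.6e-06). Fgf2, basic fibroblast growth factor, read -2.95, -2.72, -3.36, -2.32 and -2.89 in cervical loop and -4.22, -4.38, -4.23, -3.92 and -4.03 in maturation. Each maturation array was below each cervical loop array, and cervical loop was 2.48-fold higher (difference -1.31, SE 0.16, adjusted p = 4.22e-06). With normexp correction the difference of Gdnf was 1.29 and that of Fgf2 -0.53, both still past the threshold, and with quantile normalization Gdnf was at 3.73. Under the titles the difference of Gdnf was -0.06 and that of Fgf2 -1.67.

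Signalling enzymes included 2 of the largest increases. Pld1, phospholipase D1, releases the lipid messenger phosphatidic acid. It read -0.36, 0.18, -0.04, -0.55 and 0.31 in cervical loop and 2.98, 2.97, 3.06, 3.06 and 2.91 in maturation. The maturation arrays lay close together, between 2.91 and 3.06, far above the cervical loop arrays, and the fold was 8.5 (difference 3.09, SE 0.19, adjusted p = 4.81e-09). Ptk2b, a calcium-responsive tyrosine kinase of the focal adhesion kinase family, read -3.32, -2.44, -3.12, -3.81 and -2.61 in cervical loop and -0.31, 0.33, -0.27, -0.36 and -0.32 in maturation. Replicate 2 stood above the other maturation arrays, and all 5 were above cervical loop, by 7.33-fold (difference 2.87, SE 0.28, adjusted p = 4.51e-07). Ppp2r2b, a regulatory subunit of protein phosphatase 2A, read -2.76, -2.57, -2.85, -2.58 and -2.10 in cervical loop and -2.95, -3.14, -3.17, -2.87 and -3.31 in maturation. Its stages were separated narrowly, and cervical loop was 1.43-fold higher (difference -0.51, SE 0.15, adjusted p = 0.00696). That call ended with quantile normalization (-0.13) and with median scaling (-0.07). Napepld, which makes N-acylethanolamine lipids, differed by 0.17 (adjusted p = 0.275) and passed with quantile normalization (0.83) and median scaling (0.61). With normexp correction Ptk2b differed by 2.02. Pld1 stayed higher under the titles (2.01), while Ptk2b did not pass there (0.33).

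Among 6 genes of adhesion, the cytoskeleton and scaffolds, 2 were higher and 3 lower, against 20.6% and 42.7% of all features. Cdh2 is N-cadherin, a calcium-dependent cell adhesion molecule. It read 0.90, 1.01, 0.93, 1.89 and 1.21 in cervical loop and 3.87, 3.67, 3.73, 3.78 and 3.79 in maturation. Cervical loop replicate 4 was the highest of its stage and still far below maturation, which was 5.98-fold higher (difference 2.58, SE 0.19, adjusted p = 2.97e-08). Pdcd10, a scaffold of the cerebral cavernous malformation complex, was 1.74-fold higher without overlap (adjusted p = 0.000126). Map2, a microtubule-associated protein best known from neuronal dendrites, had the largest decrease of the named genes. It read -3.23, -5.02, -4.38, -2.92 and -3.74 in cervical loop and -7.24, -6.61, -7.22, -7.62 and -6.98 in maturation. Well above background on all 5 cervical loop arrays and on no maturation array, Map2 was at least 5.69-fold lower in maturation (measured difference -3.28, SE 0.34, adjusted p = 9.32e-07). That bound is on the scale of the processed signal: with normexp correction Map2 differed by -0.60, a smaller fold than the bound, and with quantile normalization by -2.49, both past the threshold.

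Dlg4, or PSD-95, a scaffold of the postsynaptic density, read -2.76, -2.28, -2.92, -2.72 and -2.85 in cervical loop and -3.76, -3.73, -3.83, -3.66 and -3.85 in maturation. Cervical loop was the higher stage on every array, by 2.09-fold (difference -1.06, SE 0.13, adjusted p = 4.7e-06), with a difference of -0.47 under normexp correction. Actb, cytoplasmic beta-actin, read 6.51, 6.21, 6.07, 6.17 and 5.87 in cervical loop and 5.53, 5.11, 5.38, 5.30 and 5.12 in maturation. The stages did not overlap, and the mean was 1.84-fold higher in cervical loop (difference -0.88, SE 0.15, adjusted p = 0.000108). Actb is commonly used to scale expression between samples, and so is Hprt1, which went the opposite way. Odf2l differed by -0.30 and did not pass (adjusted p = 0.178). Of the 3 tested genes of the neuronal-type list of 12, Map2 and Dlg4 were lower and Gdnf higher; Tubb3, a neuronal tubulin, was not among the named genes.

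All 4 genes of the ubiquitin pathway were higher in maturation, where 20.6% of all features were. Ndfip1 and Ndfip2 are membrane adaptors that recruit and activate ubiquitin ligases of the Nedd4 family. Ndfip2 read 1.78, 1.93, 2.23, 1.93 and 2.30 in cervical loop and 3.48, 3.60, 3.75, 3.64 and 3.54 in maturation. Maturation was above cervical loop throughout, by 2.96-fold (difference 1.56, SE 0.14, adjusted p = 2.05e-07). Ndfip1 read 3.20, 3.80, 3.81, 3.45 and 3.72 in cervical loop and 4.76, 4.81, 4.90, 4.82 and 4.65 in maturation. It too showed no overlap, with a fold of 2.29 (difference 1.20, SE 0.13, adjusted p = 1.32e-06). Trim2, a RING-type ubiquitin ligase, read 1.75, 2.84, 1.87, 2.26 and 2.37 in cervical loop and 3.55, 3.40, 3.65, 3.57 and 3.30 in maturation. Cervical loop replicate 2 came closest to the maturation arrays without reaching them, and the fold was 2.42 (difference 1.28, SE 0.19, adjusted p = 2.74e-05). Mex3c, an RNA-binding protein with a RING domain, was 1.52-fold higher (adjusted p = 0.00145), also without overlap. Under the titles the differences were 1.18 for Ndfip2, 1.28 for Ndfip1, 0.77 for Trim2 and 0.48 for Mex3c, all past the threshold.

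Of 6 genes of RNA handling and translation, 4 were lower and none higher, where 42.7% of all features were lower and 20.6% higher. Eif4b, which stimulates the helicase of translation initiation, read 3.20, 3.03, 2.94, 3.46 and 2.78 in cervical loop and 2.43, 2.37, 2.40, 2.66 and 2.33 in maturation. Its arrays did not overlap, and cervical loop was 1.56-fold higher (difference -0.65, SE 0.15, adjusted p = 0.00131). Magoh, a core protein of the exon junction complex, read 2.57, 2.45, 2.31, 2.58 and 2.16 in cervical loop and 1.90, 1.76, 1.98, 1.85 and 1.69 in maturation. Again no maturation array reached cervical loop, and the fold was 1.49 (difference -0.58, SE 0.12, adjusted p = 0.000447). Rplp1, an acidic protein of the ribosomal stalk, read 7.91, 7.75, 7.80, 8.25 and 7.78 in cervical loop and 7.55, 7.70, 7.68, 7.63 and 7.27 in maturation. The lowest cervical loop array, at 7.75, was just above the highest maturation array, at 7.70, and the fold was 1.26 (difference -0.33, SE 0.12, adjusted p = 0.0247). Rpl13a, a protein of the large ribosomal subunit, overlapped between stages and was 1.32-fold higher in cervical loop (difference -0.40, SE 0.15, adjusted p = 0.0263).

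The median difference of all features was -0.28, close to the differences of Rplp1 and Rpl13a, and the calls of all 4 genes depended on the scaling. With median scaling the differences were -0.21 for Eif4b, -0.14 for Magoh, 0.11 for Rplp1 and 0.04 for Rpl13a, none past the threshold. Quantile normalization gave -0.88 for Eif4b, -0.80 for Magoh and -0.23 for Rplp1, all past the threshold, and -0.16 for Rpl13a, not past it. In a limma fit on the 10 arrays alone, Rplp1 (adjusted p = 0.058) and Rpl13a (adjusted p = 0.057) did not pass. Without cervical loop replicate 4 or without maturation replicate 5, Rplp1 was at -0.24 and -0.26 and Rpl13a at -0.29 and -0.31, and neither gene passed. In the secretory stage Rplp1 read 8.22 ± 0.04, above both other stages, and under the titles its difference was 0.18. Pop7, a subunit of RNase P, and Med16, a subunit of the Mediator complex of transcription, did not pass (adjusted p = 0.478 and 0.337).

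Both xenobiotic enzymes passed, as did 63.2% of all features, in opposite directions. Cyp2e1, a cytochrome P450 that oxidizes ethanol and other small molecules, read -5.17, -3.87, -5.54, -5.72 and -4.65 in cervical loop and -7.25, -7.09, -7.34, -7.35 and -6.31 in maturation. Maturation replicate 5 stood above the other maturation arrays and was the only one of the stage well above background. The stages did not overlap, and the measured difference was -2.08 (SE 0.32, adjusted p = 3.67e-05). With the dim arrays set to the lowest signal well above background, cervical loop was at least 2.6-fold higher. With normexp background correction the difference was -0.27 and did not pass, and with quantile normalization it was -1.14. Nat1, an arylamine N-acetyltransferase, was 1.78-fold higher in maturation without overlap (adjusted p = 9.18e-05).

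Of the 5 genes of transport, chaperones, lysosome and immunity, 2 were higher and none lower, against 20.6% and 42.7% of all features. Cse1l, the exporter that returns importin alpha to the cytoplasm, was 1.55-fold higher in maturation (adjusted p = 0.00119) without overlap, and its difference was -0.28 under the titles. Nlrp3, the sensor of an inflammasome of myeloid cells, overlapped between the stages and was 1.53-fold higher (adjusted p = 0.0167); it was well above background on 3 cervical loop arrays and all 5 maturation arrays. That difference was 0.09 with normexp correction, not past the threshold, and 1.56 with quantile normalization. B2m, the light chain of MHC class I, ranged from 4.58 to 5.78 in cervical loop and from 5.35 to 5.84 in maturation. Its difference of 0.47 did not pass (adjusted p = 0.0554), but it passed without cervical loop replicate 2 (0.64) or replicate 5 (0.54), with median scaling (0.91) and with normexp correction (0.47). Hsp90ab1, a cytosolic chaperone, differed by -0.30 (adjusted p = 0.075) and passed without cervical loop replicate 2 (-0.39) and with quantile normalization (-0.46). Gusb, a lysosomal glucuronidase, ranged from 1.82 to 3.57 in cervical loop and differed by -0.08 (adjusted p = 0.794).

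**Figure D4:**
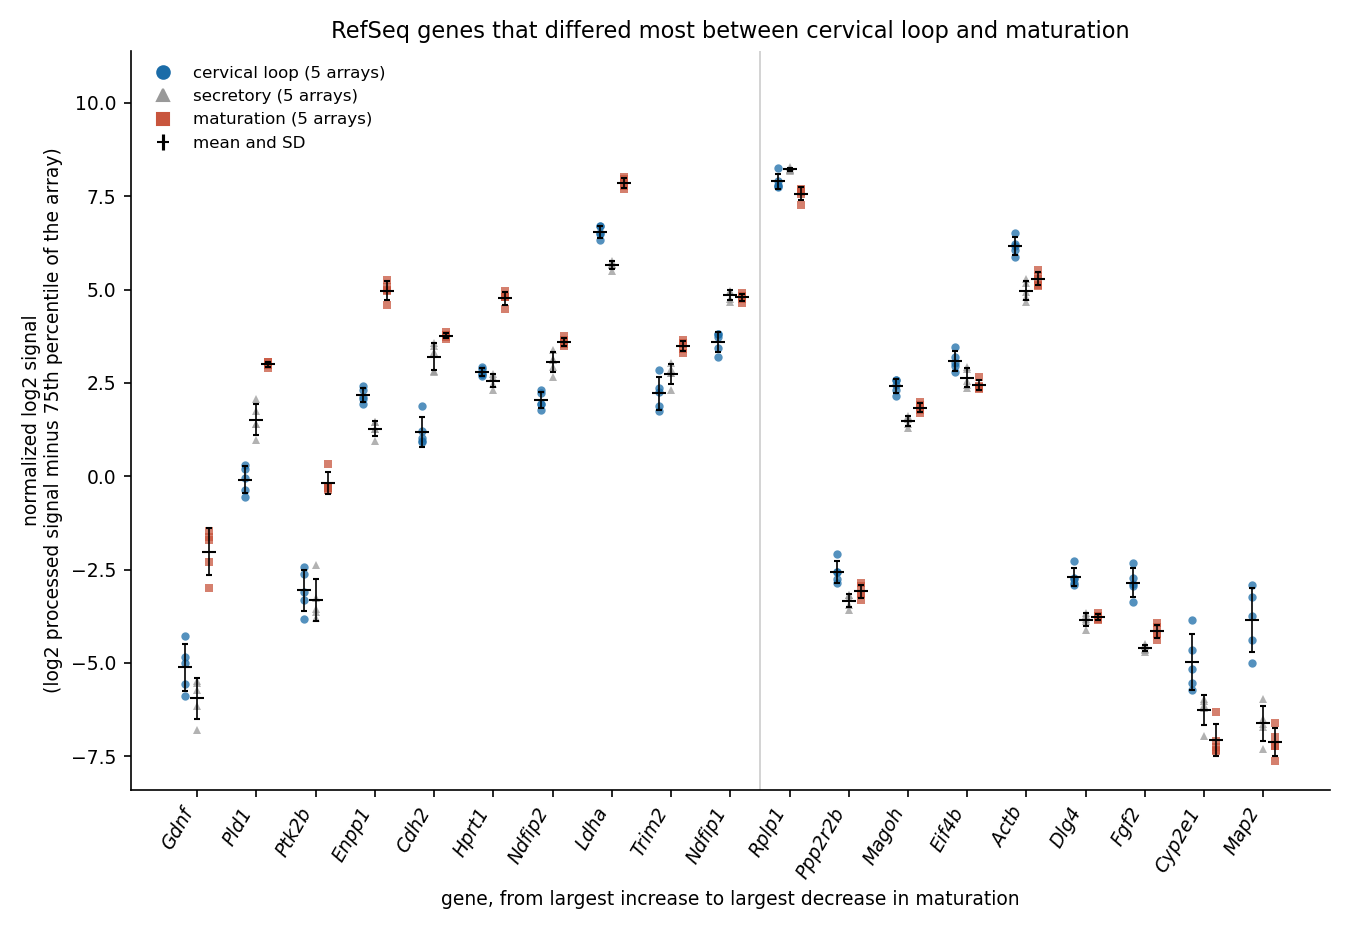
Normalized log2 signal of the 19 RefSeq genes with the largest differences on each cervical loop (blue circles), secretory (grey triangles) and maturation array (red squares), with the mean and SD of each stage in black. Genes run from the largest increase, Gdnf, to the largest decrease, Map2, and the maturation arrays do not overlap the cervical loop arrays in any of them, which the choice of genes requires.

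The secretory stage lies between the 2 stages in the tooth, but the signal was not always intermediate. Of the 10 genes with the largest increases, the secretory mean lay between the other stages for 4, below both for 5 and above both for 1. Cdh2 was of the first kind, at 3.20 ± 0.36 (SD, n = 5), and Enpp1 of the second, at 1.28 ± 0.21. Among the 9 decreases, 3 secretory means lay between, 5 below both and 1 above both. These positions are descriptions, with no test.

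Of the glycolysis and lactate list, 2 of 16 genes were tested and both were higher, against 20.6% of all features. All 3 tested ubiquitin ligases and adaptors of a list of 9 were higher. All 3 tested translation genes of a list of 9 were lower, against 42.7% of all features. Of the common reference genes 7 of 15 were tested, with 3 higher and 3 lower, where 20.6% and 42.7% of all features were. Pgk1, Ldha and Hprt1 were the 3 higher, Actb, Rplp1 and Rpl13a the 3 lower, and B2m did not pass. These lists are too thinly covered by the named probes of the array to describe a pathway.

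The largest differences among the sequences named only by an accession were increases. The probe for D63772 read -5.61, -4.42, -4.68, -5.59 and -5.13 in cervical loop and 1.28, 1.37, 1.46, 1.56 and 1.35 in maturation. Every maturation array was far above every cervical loop array, by 89.8-fold (difference 6.49, SE 0.51, adjusted p = 4.73e-08). The secretory arrays, which enter that SE, ranged from -6.24 to -2.50. The probe for XM_340999.3 read 2.36, 3.84, 2.84, 2.02 and 3.94 in cervical loop and 8.07, 8.24, 8.28, 8.34 and 8.07 in maturation. The cervical loop arrays were widely spread, from 2.02 to 3.94, all below maturation, and the fold was 36.8 (difference 5.20, SE 0.38, adjusted p = 1.91e-08). Under the titles the differences were 1.71 and 1.75, and neither passed. With normexp correction D63772 was at 4.22. Of 20 such features tested, 7 were higher and 7 lower, against 20.6% and 42.7% of all features. XM_345576.3 was 2.33-fold higher in cervical loop (adjusted p = 2.98e-05). All 6 custom features without any name, dim probes with a median signal of -5.52, were lower, with differences of -0.53 to -1.85.

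Probes for ultraconserved elements were mostly lower in maturation. Of 390 tested, 39 were higher (against 20.6% of all features), 232 lower (59.5%, against 42.7%) and 119 did not pass; the median difference was -0.65, against -0.28. These probes were dim, with a median signal of -3.96 against -1.73. In the dimmest quintile of all features 138 of 180 were lower and 14 higher, while in the brightest quintile 2 of 20 were lower and 8 higher. With quantile normalization 72 (18.5%) were higher and 137 (35.1%) lower, against 25.1% and 29.8% of all features, and the median differences were -0.17 on both strands. Plus-strand probes were higher for 16 and lower for 122 of 193, and minus-strand probes for 23 and 110 of 197. The probe sequences are not among the files used here, so none is printed.

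Among the decreases, the probe uc.220- read -2.77, -4.15, -4.09, -2.84 and -3.44 in cervical loop and -7.94, -7.08, -7.95, -7.85 and -7.69 in maturation. It was well above background on every cervical loop array and on no maturation array, at least 7.79-fold lower in maturation (measured difference -4.24, SE 0.30, adjusted p = 1.58e-08). The difference was -0.79 with normexp correction and -2.58 in the authors' series table, both smaller than that bound on the processed signal and both past the threshold. Its plus-strand probe did not rise well above background on any array of either stage. Next came uc.195-, at -1.86, -3.33, -2.56, -1.91 and -2.24 in cervical loop and -5.40, -5.85, -6.12, -5.67 and -5.63 in maturation. No arrays overlapped, 4 of 5 maturation arrays were well above background, and cervical loop was 10.2-fold higher (difference -3.36, adjusted p = 4.76e-08), while the plus strand differed by -0.68. In uc.378- cervical loop was 9.23-fold higher (adjusted p = 6.17e-07), with all 10 arrays well above background. For 3 more probes no maturation array was well above background: uc.350+ was at least 3.54-fold lower in maturation, and the bounds of the decrease were 5.53-fold for uc.337+ and 2.55-fold for uc.221+.

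Among the increases, uc.454- read -5.52, -7.06, -5.83, -7.05 and -6.25 in cervical loop and -2.83, -3.01, -2.92, -1.88 and -2.11 in maturation. Only 2 of the cervical loop arrays were well above background, all lay below maturation, and the measured difference was 3.79 (SE 0.32, adjusted p = 9.47e-08). With the dim arrays set to the lowest signal well above background, uc.454- was at least 10.5-fold higher in maturation. Another 3 probes were above background on no cervical loop array: uc.176+ was at least 2.52-fold higher in maturation, and the bounds of the increase were 2.76-fold for uc.287+ and 3.76-fold for uc.217+. The probe uc.6- was 4.23-fold higher (adjusted p = 4.01e-05), and under the titles its difference was 0.52, not past the threshold. Over the probes of these decreases and increases, normexp correction gave differences of -1.33 to -0.28 and of 0.39 to 1.85, and quantile normalization -3.49 to -2.08 and 2.10 to 4.51, all past the threshold.

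Element uc.173 was higher on both strands. Its minus strand read -4.61, -4.73, -4.49, -4.65 and -4.65 in cervical loop and -2.50, -2.66, -2.55, -2.52 and -2.63 in maturation. The arrays of each stage lay close together, and maturation was 4.15-fold higher (adjusted p = 6.28e-08). On the plus strand the fold was 3.33 (difference 1.74, SE 0.15, adjusted p = 9.78e-08), again without overlap. The minus strand differed by 0.84 with normexp correction and by 2.64 with quantile normalization.

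Both strands were tested for 104 elements, and 42 passed on both. Of these 42, 33 were lower on both strands, 2 were higher on both (uc.173 and uc.420) and 7 went in opposite directions. Of the 390 single probes, 232 (59.5%) were lower and 39 higher, against 42.7% and 20.6% of all features. Lower calls were thus the more frequent on either strand, so the 33 elements are not read as agreement between strands. In uc.287 the plus strand was higher (3.11) and the minus strand lower (-1.69), and in uc.350 the plus strand was lower (-3.14) and the minus strand higher (1.26). In uc.6 the plus strand was lower (-0.75) and the minus strand higher (2.08), and uc.299, uc.403, uc.423 and uc.47 were the other 4. Across the 104 elements the differences of the strands had a Pearson's r of 0.21 and a Spearman's rho of 0.33, a description over probes of the same arrays. The difference between strands was not tested.

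**Figure D5:**
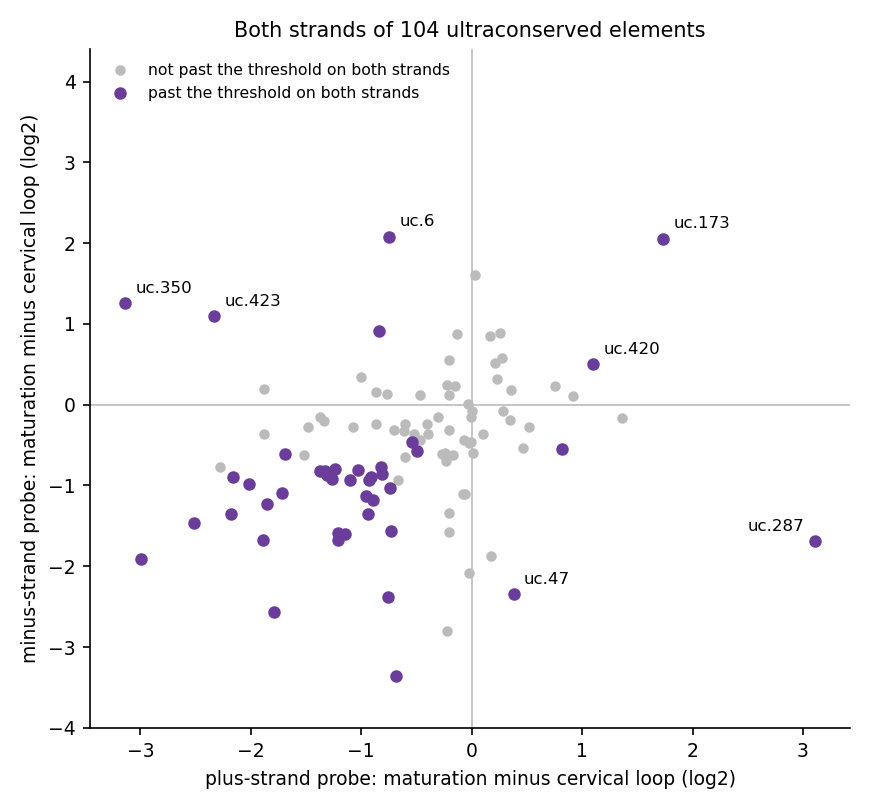
Difference between maturation and cervical loop (log2) of the plus-strand probe (horizontal) and the minus-strand probe (vertical) of the 104 ultraconserved elements with both strands tested. Purple points passed the threshold on both strands; most lie in the lower left part of the plot, uc.173 lies at the upper right, and uc.287, uc.350, uc.423, uc.6 and uc.47 lie in the corners where the strands differ in sign.

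The remaining 28410 tested features, probes for which the files give no gene name, held the largest differences of all. The array reads each with a single spot, so these values have no spread within an array. ASRNV20014000 read -2.59, -2.98, -3.45, -3.37 and -3.57 in cervical loop and 9.34, 9.35, 9.32, 9.15 and 8.90 in maturation. It was well above background on all 10 arrays, and the difference was 12.40 (SE 1.03, adjusted p = 8.32e-08). That SE also holds the spread of the secretory arrays, which ranged from -1.06 to 6.47. ASRNV20016746, ASRNV20024301 and ASRNV20016418 were 289-fold, 179.7-fold and 177-fold higher in maturation. In the other direction, ASRNV20025048 read 4.13, 2.79, 3.73, 4.63 and 4.53 in cervical loop and -3.38, -2.85, -5.34, -4.47 and -3.10 in maturation. Cervical loop was 221-fold higher with no overlap (difference -7.79, SE 0.52, adjusted p = 8.36e-09). ASRNV20014560, ASRNV20001254 and ASRNV20024812 were 208-fold, 68.9-fold and 65.2-fold higher in cervical loop. With normexp correction the 4 increases were 6.10 to 11.14 and the 4 decreases -6.72 to -4.58 on the log2 scale.

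Some features were well above background in only 1 of the 2 stages. On all 5 maturation arrays and no cervical loop array there were 77 of the 28863 features. Of these, 74 had no gene name and 3 were ultraconserved-element probes, of which 390 were tested. On all 5 cervical loop arrays and no maturation array there were 401, of which 380 had no gene name, 19 were ultraconserved-element probes, 1 was a custom probe and 1 was Map2. Spots well above background made up 71.9% on the maturation arrays and 77.1% on the cervical loop arrays. The part of this in the counts was not tested. The largest lower bounds belonged to ASRNV20023865 and ASRNV20013773, at least 257-fold and 225-fold higher in maturation. In cervical loop they belonged to ASRNV20022343 and ASRNV20022034, at least 291-fold and 74.1-fold higher. With normexp correction these 4 differed by 4.76, 4.68, -4.97 and -3.04, each a smaller fold than its bound. ASRNV20022343 read 3.39, 1.23, 1.15, 1.18 and 1.87 in cervical loop and -8.74, -8.97, -8.29, -8.31 and -8.71 in maturation. Its lowest cervical loop array was well clear of its highest maturation array.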

How the data were processed

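The members, gene lists and tests were chosen with earlier results of these data known, and the 5 array measures beside the share of spots were added after seeing the data. Per the labels' protocols, total RNA was labelled with Cy3, and Agilent Feature Extraction 11.0.1.1 is named in the submitters' processing notes. The deposited scanner files hold intensity values per spot on a linear scale, with the processed signal background-subtracted per the file headers. The series table deposited by the authors is on a log2 scale. How it was normalized is not stated in any label or header; it lists 28800 of the 28863 features, no RefSeq gene among them, and served only as an alternative.

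Control spots and flagged spots were left out, spots of a probe were averaged, and a probe's status on an array, above background or not, was set by 50% of its spots. A RefSeq gene with several probes stands by the probe of highest mean signal. One model over all 15 arrays was fitted with limma 3.58.1 (R 4.3.3), after a test on simulated data, with Benjamini-Hochberg adjustment over all 28863 features. The p-values of single array measures are exact permutation tests over arrays. The labels do not tie arrays to rats, so p-values measure the spread between these samples. Gene symbols came from the files' accessions through RefSeq on GRCr8; 23 accession probes were not matched and 37277 probes carry no name. Named genes are the 10 largest increases and up to 10 largest decreases past the threshold without overlap between the stages (9 met this), with 6 ultraconserved-element probes and 4 unnamed probes in each direction by the same rule. The normexp alternative used the median spot signal in place of the mean signal.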

Additional observations from a re-analysis of the deposited data

Results flagged for a closer look

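Among 128 groups of 5 arrays, one for each stage of each feature described, 8 held an array set apart from the other 4 by a gap large for the group's range; chance alone sets about 1 in 20 groups apart in this way. All values are normalized log2 signals. Ptk2b read 0.33 on maturation replicate 2, against -0.36 to -0.27 on the other maturation arrays. Cyp2e1 read -6.31 on maturation replicate 5, against -7.35 to -7.09 on the others. Rpl13a read 6.53 on maturation replicate 5, against 6.95 to 7.04. Cse1l read 3.09 on cervical loop replicate 2, against 3.60 to 3.80, and Pop7 read 3.36 on cervical loop replicate 4, against 2.77 to 2.93. Slc28a2 read 1.64 on maturation replicate 3, against 1.22 to 1.28. The unnamed probe ASRNV20024812 read 2.90 on cervical loop replicate 2, against 4.36 to 4.65, and -1.60 on maturation replicate 2, against -1.94 to -1.86. Maturation replicates 2 and 5 and cervical loop replicate 2 each stood apart in 2 of these groups.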

How the results depend on the processing

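With median scaling 10801 features were higher and 6689 lower in maturation, 4727 of them at least 2-fold higher and 3083 at least 2-fold lower, with 5 RefSeq genes lower. At least 2-fold lower were 3157 features with quantile normalization, 1250 with normexp correction and 2935 in the authors' series table. When features had to be above background on all 10 arrays, 3727 of 25480 were. Of 390 ultraconserved-element probes, 72 (18.5%, quantile), 80 (20.5%, median) and 73 (18.7%, series table) were higher, against 25.1%, 37.4% and 25.0% of all features. Lower were 137 (35.1%, quantile), 154 (39.5%, median), 137 (35.1%, normexp) and 129 (33.1%, series table). The shares of all features lower were 29.8%, 23.2%, 33.5% and 29.8%. Without a filter on dim probes 459 of 962 were lower, against 41.1% of all features. Among those above background on all 10 arrays 150 of 288 were lower, against 39.1%. With stages from the titles, 3740 features (13.2%) and 8 RefSeq genes were higher and 7858 features (27.7%) and 132 ultraconserved-element probes lower.

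Directions turned under the titles for Gdnf (-0.060), Enpp1 (-0.19), Ldha (-0.46), Pgk1 (-0.16), Cse1l (-0.28) and Rplp1 (0.18), and among genes that did not pass for Gusb (0.25), B2m (-0.010), Pop7 (-0.21), Pdk3 (-0.051) and Napepld (-0.21). They turned with median scaling for Rplp1 (0.11), Rpl13a (0.043), Gusb (0.36), Med16 (0.27), Slc28a2 (0.23), Hsp90ab1 (0.14), P2rx2 (0.27) and Odf2l (0.14), and with quantile normalization for Pop7 (-0.16) and P2rx2 (0.14). Leaving out each array in turn gave -0.30 to 0.14 for Gusb (turned without cervical loop replicate 2 or 5), -0.40 to 0.11 for Slc28a2 (without replicate 4) and -0.33 to 0.063 for P2rx2 (without replicate 2). The median minus the 75th percentile of an array differed by -0.44 between the stages, and median scaling moves every difference upward by that amount. Under the titles, most arrays called maturation carry the secretory tissue label. The cause of the other turns was not tested.

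Leaving out each array in turn gave 5430 to 5951 features higher and 11443 to 12309 lower, 2267 to 2486 and 5469 to 6185 at least 2-fold, 17 to 18 and 8 to 11 RefSeq genes, and 36 to 41 and 213 to 237 ultraconserved-element probes. The difference in the share of spots above background was -6.30 to -4.11 percentage points, and its exact permutation p was 0.0635 without cervical loop replicate 1, 3, 4 or 5 or maturation replicate 3 or 4.

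Whether the replicate number pairs the samples was not settled, since the labels do not say and the correlations of deviations were small. Between arrays of the same number they were 0.07, 0.00, 0.19, 0.04 and 0.25, and between arrays of different numbers -0.17 to 0.23. For 2 of 5 cervical loop arrays the best correlation was with their own number. With the replicate number as a block, 6026 features were higher and 12457 lower, and over pairs the share of spots differed by -5.17 points (exact permutation p = 0.125). The scan as a random block gave 5426 and 11435, but no scan held both stages, so this block cannot separate scan from stage. A slide block was not run, since the files number only scans. Signal near background limits the dim features.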
